A study of Mus musculus with 6 samples.

Results

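The genes described here are 9 genes of the megakaryocyte and platelet lineage, Pf4, Ppbp, Itga2b, Gp1ba, Gp1bb, Gp9, Gp5, Gp6 and Vwf, of 57010 genes in the count table. They were picked by name, and they were chosen from the measured difference between mandible and femur in these same counts. That difference is therefore given for them as a description, without a test. All 9 genes had more counts in the femur than in the mandible. For the 8 genes with enough counts for a fit, the mean level was between 6.02 and 17.6 times higher in femur-derived than in mandibular-derived monocytes, and the lowest femur library lay above the highest mandible library for each of them. The 9th gene, Gp1bb, had 8 counts in 1 femur library and none in the other 5 libraries.

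Megakaryocytes are the large marrow cells that shed platelets, and they hold the RNA for the proteins that platelets carry. The products of Gp1ba, Gp1bb, Gp9 and Gp5 form the glycoprotein Ib-IX-V complex, the receptor through which platelets catch on von Willebrand factor at a damaged vessel wall. Glycoprotein VI, made from Gp6, is the platelet receptor for collagen, and integrin alpha IIb, made from Itga2b, pairs with the beta chain encoded by Itgb3 to bind fibrinogen and join platelets to each other. Pf4 and Ppbp encode CXC chemokines that are stored in the alpha granules and released on activation, and Vwf encodes von Willebrand factor itself, which endothelial cells also make.

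RNA was sequenced from monocytes that were enriched by negative selection from total marrow, in which labelled antibodies hold back other cell types on a magnetic column. Of the 6 libraries, 3 came from the femur (S13, S15 and S18) and 3 from the mandible (S16, S19 and S23) of mice aged 1 year, whose strain is C57BL/6 in the labels and C57BL/6J in the methods. No treatment or genetic change is named for either group. The mice of the study were male and female, but the sex, the animal, any pooling of animals and the batch of each library are not given in the sources used here, so p-values measure the spread between these libraries only.

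The libraries held 15718782 to 25371474 counts on genes. Mandible library S23 had 25189 counts of Xist, which is transcribed from the silenced X of female cells, against 0 to 12 in the other 5 libraries. It had no count of Uty, Kdm5d, Eif2s3y or Ddx3y, genes of the Y chromosome with 432 to 1581 counts in the others. S23 therefore stood apart, and values without it are given below for each fitted gene. No femur library had this pattern, so sex-linked genes were not balanced between the sites. The part of sex in the differences was not tested. The label of the cells was checked with 12 monocyte genes, all of which passed the filter on low counts: their summed level was 7419 to 13551 counts per 1000000 counts (CPM) in the femur and 6536 to 10936 CPM in the mandible. Most of each sum was Lyz2 (named after its values were seen), at 4630 to 10579 CPM in the femur and 4620 to 7816 CPM in the mandible. The sums therefore mainly show this 1 gene, and they do not measure how pure the monocytes were. The sum of 10 neutrophil genes, given below, was above the monocyte sum in S13 (33033 against 9595 CPM) and S18 (23688 against 13551 CPM). It was below the monocyte sum in S15 and in each mandible library. Of the 12 genes, 0 were called lower in the mandible (0 at an unadjusted p under 0.05 and 0 with DESeq2) and 1 was called higher. It was Nr4a1 (singled out after its values were seen, called in 1 of 6 fits that left out 1 library, log2 fold change 1.25, SE 0.32, Benjamini-Hochberg adjusted p = 0.047, edgeR quasi-likelihood test). CPM here and below are scaled by the trimmed mean of M values (TMM), log2 fold changes are mandible minus femur, and a gene was called if it changed at least 2-fold with an adjusted p under 0.05. Over all 18114 genes tested, the median log2 fold change was -0.04.

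All counts of the 9 genes together were, for the femur, 15269 in S13, 12937 in S15 and 21363 in S18, which is 0.0653 to 0.0842% of each library. The mandible libraries had 2184 in S16, 1668 in S19 and 1795 in S23, or 0.00814 to 0.0114%. These genes were a small fraction of the RNA at both sites, yet each of the 8 fitted genes had at least 179 counts in every femur library. In bulk RNA, fewer cells of a type and less RNA per cell cannot be told apart.

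Gp1ba, the chain of the receptor that binds von Willebrand factor, lies at chr11:70639122-70642036 on the plus strand (GRCm38, GENCODE M21, 2 exon blocks). Its level was 17.3 CPM in S13, 20.7 CPM in S15 and 27.6 CPM in S18 of the femur. In the mandible it was 0.951 CPM in S16, 0.665 CPM in S19 and 2.12 CPM in S23. These are 314 to 625 counts against 14 to 37 counts, and the groups were far from overlapping: the lowest femur library was 8.20 times the highest mandible library. The means were 21.9 ± 5.24 and 1.24 ± 0.769 CPM (SD, n = 3 each) and were 17.6-fold apart. The fitted log2 fold change was -4.14 (SE 0.55), and it was -4.81 without S23, the mandible library with the highest value.

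Gp9, a small chain that the complex needs to reach the cell surface, lies at chr6:87778072-87779768 on the plus strand. Its femur levels were 9.89, 10.4 and 15.5 CPM in S13, S15 and S18. In the mandible it had no count in S16, which allows up to 3 counts or 0.146 CPM before scaling, and 2.14 CPM in S19 and 1.43 CPM in S23. The groups did not overlap, but the mandible value rested on 45 and 25 counts in 2 of 3 libraries, and its log2 fold change of -3.32 had the largest error of the 8 genes (SE 1.03). It was -2.73 without S16 and -4.11 without S19. Gp9 was also the gene that passed the filter with only 2 mandible libraries over its level of 0.493 CPM, while the other 7 fitted genes were over it in all 3.

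Gp5, the chain that thrombin cleaves, lies at chr16:30307685-30310779 on the minus strand. Its level was 18.6, 22.3 and 37.4 CPM in S13, S15 and S18 of the femur, and 1.75, 3.75 and 2.57 CPM in S16, S19 and S23 of the mandible. S18 was set apart from the other femur libraries, and the lowest femur value was still 4.95 times the highest mandible value. The means were 26.1 ± 9.99 and 2.69 ± 1.00 CPM (SD, n = 3 each), 9.69-fold apart, with a log2 fold change of -3.27 (SE 0.47).

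Gp1bb, the chain bonded to the Gp1ba product, lies at chr16:18620317-18622403 on the minus strand and could not be compared. It had 8 counts in femur library S18, or 0.353 CPM, and 0 counts in each of the other 5 libraries, so it did not pass the filter. Of its 2087 exon bases, 1902 (91.1%) are also exon of Sept5 and 867 (41.5%) of Gm49601, both on the same strand in GENCODE M21. Reads that fall on exons of several genes are by default given to none of them by featureCounts, the counting tool used, and the effect of this on Gp1bb was not tested. Sept5, listed in the table as Septin5, had 71 to 187 counts per femur library and 67 to 131 per mandible library (log2 fold change -0.14, SE 0.59, Benjamini-Hochberg adjusted p = 0.95, edgeR quasi-likelihood test).

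Vwf, the ligand of the complex, lies at chr6:125546774-125686679 on the plus strand with 56 exon blocks. Its levels were 152 CPM in S13, 122 CPM in S15 and 192 CPM in S18 of the femur, and 28.4 CPM in S16, 23.3 CPM in S19 and 25.9 CPM in S23 of the mandible. The mandible libraries were closer to each other than for any other of these genes (coefficient of variation 9.79%), and the groups were 6.02-fold apart with no overlap. The log2 fold change was -2.59 (SE 0.27).

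Since endothelial cells make von Willebrand factor too, 20 endothelial genes were examined beside it. Of these, 14 passed the filter, 1 was called lower and 0 were called higher by edgeR (1 higher at an unadjusted p under 0.05 and 1 called higher by DESeq2), and the median log2 fold change was 0.10. Their summed level was 83.4 to 97.3 CPM in femur libraries against 76.7 to 110 CPM in mandible libraries, so the groups overlapped. A large part of these sums was Pecam1, at 38.3 to 50.1 CPM in the femur and 29.2 to 43.5 CPM in the mandible. Cdh5 was near the floor, at 1.07 ± 0.951 and 0.957 ± 0.833 CPM (both named after their values were seen). The part of endothelial cells in the level of Vwf was not tested. The gene called lower was Esam, an adhesion molecule of endothelial cells and platelets, at 9.25 ± 0.773 CPM in the femur libraries and 0.146 ± 0.128 CPM in those of the mandible (SD, n = 3 each). Its log2 fold change was -5.90 (SE 0.97, Benjamini-Hochberg adjusted p = 0.0046, edgeR quasi-likelihood test), and it was called in all 6 fits that left out 1 library.

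Gp6, the collagen receptor, lies at chr7:4363965-4397744 on the minus strand with 8 exon blocks. Its femur levels were 21.8, 24.6 and 29.2 CPM in S13, S15 and S18, the tightest femur group of the 8 genes (coefficient of variation 14.8%). The mandible levels were 2.1 CPM in S16, 2.75 CPM in S19 and 0.458 CPM in S23, which is 42, 58 and 8 counts. The groups were 14.2-fold apart and did not overlap. The log2 fold change was -3.82 (SE 0.59), and -3.43 without S23, the lowest mandible library.

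Itga2b, the alpha chain of the fibrinogen receptor and an early surface mark of the lineage, lies at chr11:102453297-102470122 on the minus strand with 28 exon blocks. It reached 239, 189 and 254 CPM in S13, S15 and S18 of the femur, and 49.9, 32.9 and 28.8 CPM in S16, S19 and S23 of the mandible. Its lowest femur library was 3.78 times its highest mandible library, the narrowest gap of the 8 genes. The means were 227 ± 34.3 and 37.2 ± 11.2 CPM (SD, n = 3 each), 6.11-fold apart, with a log2 fold change of -2.61 (SE 0.30).

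The chemokine genes Ppbp and Pf4 lie side by side at chr5:90768518-90770063 and chr5:90772435-90773383, both on the plus strand. Pf4 was at 289, 92.4 and 242 CPM in S13, S15 and S18 of the femur, and at 14.9, 9.35 and 17.0 CPM in S16, S19 and S23 of the mandible. S15 was clearly below the other femur libraries for Pf4, and it still was 5.42 times the highest mandible library. Ppbp was at 95.7, 115 and 146 CPM in the femur and at 11.3, 4.32 and 24.4 CPM in the mandible, in the same order of libraries. The mandible values of Ppbp were spread widely (13.4 ± 10.2 CPM, SD, n = 3), with S23 the highest. The log2 fold changes were -3.91 (SE 0.45) for Pf4 and -3.16 (SE 0.52) for Ppbp, and -4.15 and -3.98 without S23.

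**Figure D1:**
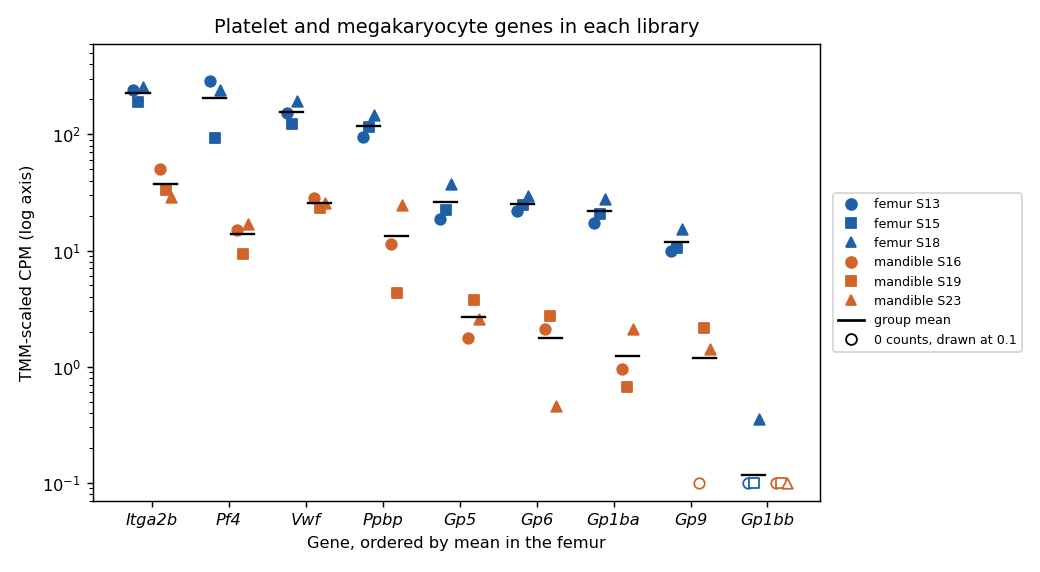
TMM-scaled CPM (log axis) of the 9 genes in each library, with femur and mandible libraries as separate points, a line at each group mean, and open points near the bottom for libraries with 0 counts. The femur libraries lie above the mandible libraries for all 8 fitted genes, and the lowest femur value is 3.78 (Itga2b) to 8.20 (Gp1ba) times the highest mandible value.

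All 8 fitted genes had groups that did not overlap, and 7 of them would be called lower. Among all tested genes, 11.5% had all 3 mandible libraries below all 3 femur libraries, and 1.3% were called lower and 3.88% higher in the mandible. Since these genes were chosen for this contrast, nothing is read from their counts against those shares. The median of their log2 fold changes was -3.30. Leaving out each library in turn gave medians from -3.69 (without S19) to -3.03 (without S18), and every one of the 8 genes stayed below 0. Without S23, the values not given above were -3.52 for Gp9, -3.29 for Gp5, -2.64 for Vwf and -2.51 for Itga2b. Removing a trend with gene length in each library moved the short gene Pf4 from -3.91 to -3.20 and the long gene Vwf from -2.59 to -3.41.

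The genes did not share one order of libraries within a site. S18 was the highest femur library for 7 of the 8 genes, and S13 was the highest for Pf4. Ppbp, Gp1ba, Gp9, Gp5 and Gp6 were lowest in femur library S13, while Pf4, Itga2b and Vwf were lowest in S15. In the mandible, S19 was lowest for 4 genes, S16 for 2 and S23 for 2. Over the 28 pairs of genes, Pearson's r of log2 CPM over the 6 libraries was 0.79 to 0.99 with a median of 0.93, a value that the difference between the sites fixes. After the mean of each site was removed, r ran from -0.82 (Ppbp and Gp6) to 0.93 (Ppbp and Gp1ba) with a median of 0.11, and 15 of 28 pairs were above 0. These correlations over 6 points share libraries and are given as a description.

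Divided by exon length, so that genes can be set beside each other, the levels spanned a wide range. In the femur, Pf4 was at 288 ± 142 CPM per kilobase, Ppbp at 109.7 ± 23.4, Itga2b at 41.7 ± 6.29, Gp9 at 13.5 ± 3.49, Gp5 at 11.9 ± 4.55, Vwf at 9.69 ± 2.18, Gp1ba at 8.05 ± 1.93 and Gp6 at 4.27 ± 0.633 CPM per kilobase (SD, n = 3 each). By this measure chemokine RNA was the highest and collagen receptor RNA the lowest. The order depends on the length used, which covers all annotated exons of a gene (5900 bases for Gp6 and 16064 for Vwf). Before the division, the femur mean of Gp6 (25.2 CPM) was above those of Gp1ba (21.9 CPM) and Gp9 (11.9 CPM). That of Itga2b (227 CPM) was above that of Pf4 (208 CPM). The ranges of neighbours in this order overlapped for Pf4 and Ppbp, for Gp9 and Gp5, for Gp5 and Vwf, and for Vwf and Gp1ba, and were apart for the other 3 neighbouring pairs. In the mandible the order began with the same 3 genes, Pf4 at 19.1 ± 5.51, Ppbp at 12.3 ± 9.42 and Itga2b at 6.82 ± 2.05 CPM per kilobase, and again ended with Gp6 at 0.30 ± 0.20 CPM per kilobase. There, only Itga2b and Vwf, and Gp5 and Gp1ba, had ranges that were apart between neighbours.

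**Figure D2:**
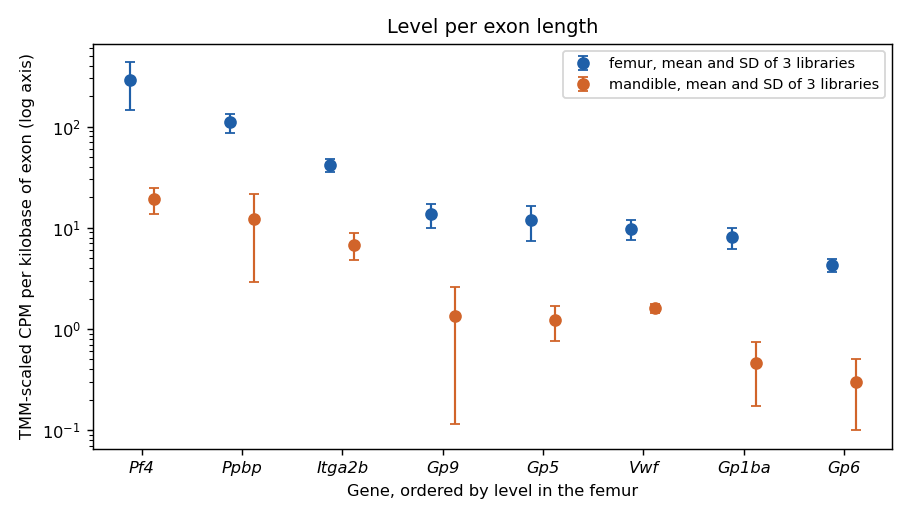
Mean level of the 8 fitted genes in TMM-scaled CPM per kilobase of exon (log axis), with SD of 3 libraries, for femur and mandible, in the order of the femur means. Pf4 is the highest gene at both sites (288 and 19.1 CPM per kilobase) and Gp6 the lowest (4.27 and 0.30 CPM per kilobase).

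Megakaryocyte genes are known to be driven by GATA, ETS and RUNX factors and by NF-E2, and the sequence before the start of each gene was searched for short words of these factors. RefSeq (GRCm38.p6) gave the 250 bases before the start for 8 of the 9 genes. Both strands were searched. The GATA words were AGATAA together with AGATAG, as well as TGATAA together with TGATAG. The ETS words were AGGAAG together with CGGAAG. The RUNX words were TGTGGT together with TGCGGT. The core that NF-E2 shares with AP-1 factors, TGANTCA, reads alike on both strands. A GATA word was in 4 of 8 windows, against 26.5% of the 32851 windows of all promoters, and an ETS word in 6 of 8 windows, against 39.2%. A RUNX word was in 1 window (Gp9; 18.6% of all) and TGANTCA in 2 (Ppbp and Gp1bb; 6.75% of all). The 150 bases nearest the start are printed for Gp1ba and Gp5, which hold the most GATA words of the 8, for Gp6, with a single one, and for Pf4, which holds no GATA word and has an ETS word next to its start. Each is written 5′ to 3′ on the strand of the gene and ends at the base before the start, with GATA and ETS words of either strand in capitals. They lie at chr11:70638972-70639121 (plus strand, Gp1ba), chr16:30310782-30310931 (minus strand, Gp5), chr7:4397745-4397894 (minus strand, Gp6) and chr5:90772285-90772434 (plus strand, Pf4).
Gp1ba: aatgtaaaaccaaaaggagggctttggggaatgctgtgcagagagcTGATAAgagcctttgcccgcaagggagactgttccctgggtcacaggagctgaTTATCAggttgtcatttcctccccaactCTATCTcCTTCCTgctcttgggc
Gp5: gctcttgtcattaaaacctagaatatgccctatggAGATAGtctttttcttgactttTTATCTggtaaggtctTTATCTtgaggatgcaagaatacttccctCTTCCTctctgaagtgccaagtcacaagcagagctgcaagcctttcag
Gp6: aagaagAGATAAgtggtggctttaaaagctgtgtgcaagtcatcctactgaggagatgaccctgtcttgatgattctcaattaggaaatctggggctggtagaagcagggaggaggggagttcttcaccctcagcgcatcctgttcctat
Pf4: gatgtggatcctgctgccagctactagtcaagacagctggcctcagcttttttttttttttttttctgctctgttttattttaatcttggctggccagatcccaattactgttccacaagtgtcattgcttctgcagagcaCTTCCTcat

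Counted from the start, the GATA words of Gp1ba begin at -104, -51 and -23, and those of Gp5 at -115, -93 and -77. In Gp1ba an ETS word begins at -16, close to the GATA word nearest the start, and in Gp5 one begins at -48. The ETS word of Pf4 begins at -9. In the 150 bases nearest the start, 91 bases before Itga2b and all 150 before Gp1bb are exon in GENCODE M21, so these are not printed. Both windows were kept in the counts of words above. That of Gp1bb held GATA, ETS and TGANTCA words, and that of Itga2b held ETS words. The RefSeq start of Itga2b (102469883, minus strand) lies inside the M21 gene, whose start is at 102470122. Most of its window is therefore within that gene. A word is a match of letters only, and these data hold no measurement of binding.

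**Figure D3:**
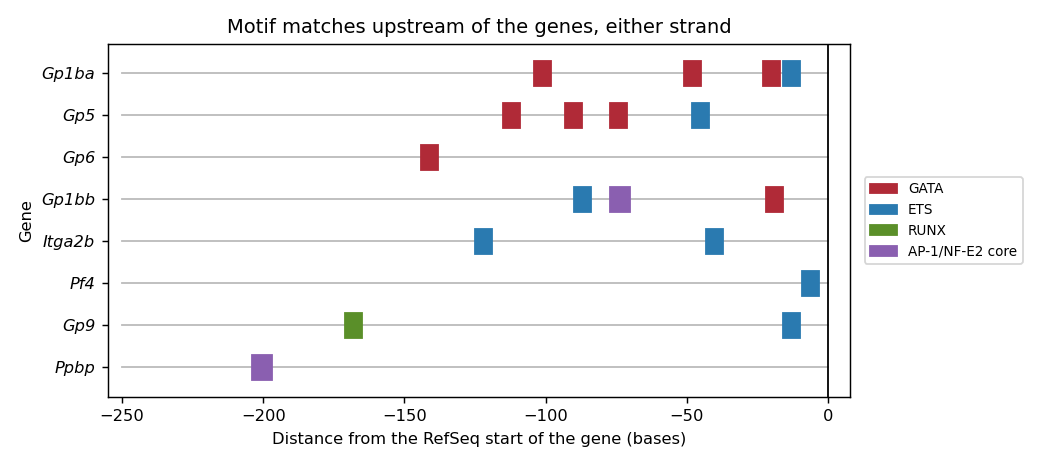
Positions of GATA, ETS, RUNX and TGANTCA words in the 250 bases before the start of the 8 genes with a RefSeq promoter (bases from the start, on the x axis). Gp1ba and Gp5 have 3 GATA words each, and 6 of the 8 genes have an ETS word.

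The rest of the lineage was examined in 83 further platelet and megakaryocyte genes in 4 lists, all of which were tested. In the mandible, 13 of the 83 genes (15.7%) were called lower, where 1.3% of all tested genes were, and 61 of the 83 were below 0. None was called higher by edgeR or by DESeq2, with 1 higher at an unadjusted p under 0.05, and DESeq2 called 19 lower. By list, 7 of 20 receptor genes, 1 of 18 granule genes, 4 of 25 signaling and cytoskeleton genes and 1 of 20 regulator genes were called lower. The median log2 fold changes were -1.69, -0.54, -0.64 and -0.32, with -0.04 over all genes. The lists were written with earlier results of these data known, so the counts are descriptions.

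The receptors held the most calls, and all 20 of them were below 0. Treml1, a receptor stored in alpha granules, was at 21.2 ± 5.99 CPM in the femur libraries and 2.34 ± 1.19 CPM in those of the mandible (log2 fold change -3.18, SE 0.53, Benjamini-Hochberg adjusted p = 0.005, edgeR quasi-likelihood test). Clec1b, which encodes the podoplanin receptor CLEC-2, was at 42.1 ± 6.26 and 6.41 ± 6.88 CPM (log2 fold change -2.72, SE 0.63, adjusted p = 0.03). S23 was the highest mandible library for Clec1b, at 14.4 CPM, and its log2 fold change was -4.16 without S23. Cd226, an adhesion receptor of platelets and lymphocytes, had a log2 fold change of -2.22 (SE 0.48, adjusted p = 0.02), and of -3.11 without S23. Itgb3, the partner chain of Itga2b, was the receptor with the highest mean over the 6 libraries, at 291 ± 57.0 CPM in the femur libraries and 91.3 ± 17.4 CPM in those of the mandible (log2 fold change -1.67, SE 0.28, adjusted p = 0.0051), although Fcer1g was above it in the mandible, at 151 ± 40.6 CPM. Osteoclasts and their precursors also make Itgb3. The tetraspanin Cd9 (log2 fold change -1.58, SE 0.35, adjusted p = 0.023) and the ATP-gated channel P2rx1 (-1.98, SE 0.40, adjusted p = 0.015), the latter singled out after its values were seen, were called too. Fcer1g, the signaling partner of glycoprotein VI, which monocytes also express, was not called (-0.23, SE 0.32, adjusted p = 0.83), and its estimate turned to 0.37 with the length trend removed. All p-values in these lists come from the same edgeR fit, with Benjamini-Hochberg adjustment over 18114 genes.

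Among granule genes, only Mmrn1, the alpha granule protein multimerin, was called lower, at 41.6 ± 6.29 CPM in the femur libraries and 13.6 ± 3.31 CPM in those of the mandible (log2 fold change -1.61, SE 0.31, adjusted p = 0.011, edgeR). The most abundant genes of this list are also known from monocytes. The transglutaminase F13a1 was at 1450 ± 459 and 1681 ± 642 CPM (log2 fold change 0.21, SE 0.41), and thrombospondin Thbs1 at 323 ± 85.1 and 286 ± 111 CPM (-0.18, SE 0.35), and neither was called (adjusted p = 0.89 for both, edgeR). Each changed sign when 1 library was left out, F13a1 to -0.05 without S19 and Thbs1 to 0.09 without S16. The proteoglycan Srgn had a log2 fold change of -1.26 (SE 0.42, adjusted p = 0.13, edgeR) and overlapping groups, with DESeq2 giving an adjusted p of 0.028.

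Among signaling and cytoskeleton genes, 4 were called lower. Alox12, the platelet 12-lipoxygenase, was at 61.0, 83.3 and 92.7 CPM in S13, S15 and S18 and at 5.95, 4.51 and 10.9 CPM in S16, S19 and S23 (log2 fold change -3.48, SE 0.38, adjusted p = 0.00036, edgeR). Tubb1, the beta tubulin of the platelet rim, was at 119, 208 and 206 CPM in the femur and at 42.8, 16.6 and 37.1 CPM in the mandible (-2.47, SE 0.38, adjusted p = 0.0034). Neither gene's groups overlapped. The phosphodiesterase Pde5a (-1.58, SE 0.31, adjusted p = 0.013) and the G protein regulator Rgs18 (-1.44, SE 0.36, adjusted p = 0.041) were called too. The abundant genes Myh9, Flna and Tln1, which form the cytoskeleton of most blood cells, had log2 fold changes of 0.41, 0.17 and 0.37 and were not called (adjusted p = 0.70, 0.89 and 0.70, edgeR). With the length trend removed they were -0.27, -0.38 and -0.19.

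Of the regulators, only Tal1, a factor of early blood and megakaryocyte and erythroid cells, was called lower, at 62.8, 21.7 and 29.03 CPM in S13, S15 and S18 and at 10.1, 7.98 and 5.49 CPM in S16, S19 and S23 (log2 fold change -2.27, SE 0.45, adjusted p = 0.013, edgeR). Gata1, named after its values were seen, had a log2 fold change of -2.02 (SE 0.58, adjusted p = 0.079, edgeR), with groups that did not overlap. Nfe2, Fli1 and Runx1, the most abundant regulators, had log2 fold changes of -0.61, -0.29 and 0.20 and were not called (adjusted p = 0.35, 0.76 and 0.82, edgeR). That of Runx1 was -0.42 with the length trend removed.

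Single libraries decided many of these calls. Treml1, Alox12 and Tubb1 were called in all 6 fits that left out 1 library. Of the 83 genes, 5 were called without S13, 18 without S15, 5 without S18, 11 without S16, 4 without S19 and 11 without S23. The genes called lower over all tested genes moved likewise, from 236 with all libraries to 62 without S13, 608 without S15, 95 without S18, 114 without S16, 58 without S19 and 163 without S23. Without S19, Treml1, Alox12 and Tubb1 kept the call and the other 10 of the 13 lost it. Without S13, Itgb3, Treml1, Tubb1, Alox12 and Pde5a kept it, and without S18, Itgb3, Treml1, Tubb1, Alox12 and Tal1. With every gene of at least 1 count tested, 23 of the 83 were called. Rgs18 lost the call with other size factors (RLE), and Cd9 and Rgs18 lost it with the length trend removed.

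**Figure D4:**
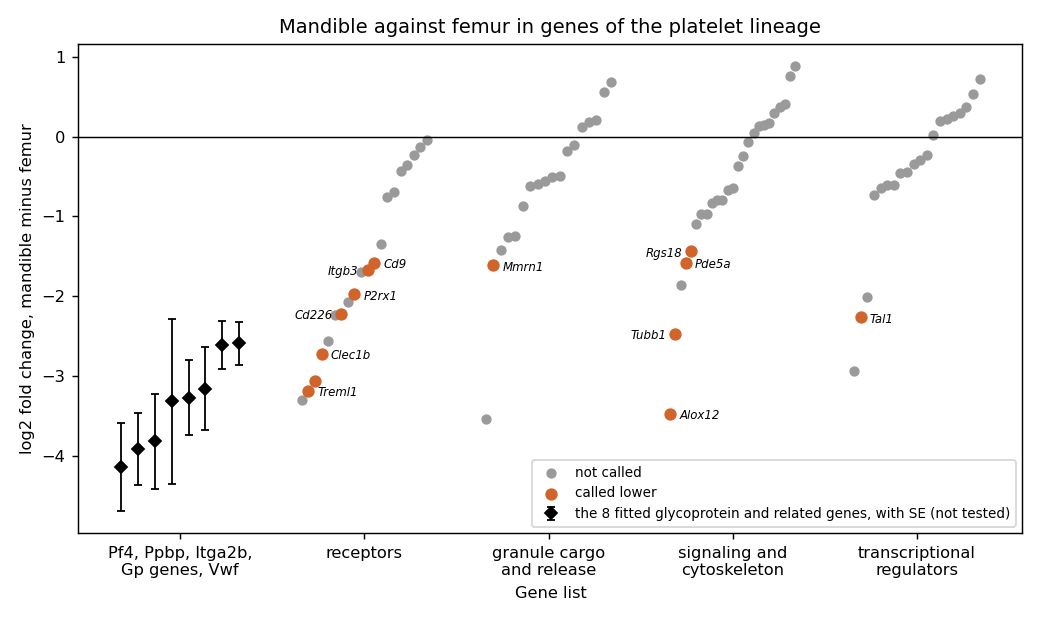
Log2 fold changes (mandible minus femur) of the 8 fitted genes, with SE and no test, and of the 83 further genes by list, with called genes in colour and 12 of the 13 named. All 20 receptors lie below 0 (median -1.69), while the regulators lie on both sides of 0 (median -0.32).

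Pf4 and Ppbp sit in a cluster of CXC chemokine genes on chromosome 5, whose other 5 genes examined were Cxcl5, Cxcl3, Cxcl15, Cxcl1 and Cxcl2. Only Cxcl5 and Cxcl2 passed the filter, and 0 of them were called by edgeR, with 1 at an unadjusted p under 0.05 and 1 called by DESeq2. Cxcl5, a neutrophil attractant 6893 bases from Ppbp, had 37, 44 and 47 counts in S13, S15 and S18 and 0 counts in each mandible library. Against a floor of 3 counts per mandible library, its femur level of 2.05 CPM was at least 13.2-fold higher (adjusted p = 0.055 in edgeR and 0.00098 in DESeq2). Cxcl2, an inflammatory chemokine of myeloid cells, was at 2.57 ± 1.64 CPM in the femur libraries and 4.41 ± 4.0 CPM in those of the mandible (log2 fold change 0.78, SE 0.89, adjusted p = 0.77, edgeR), and at -0.32 without S23.

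The nearest tested genes on each side of the 9 genes, 16 in all, were examined in the same way. With edgeR none was called lower and 1 was called higher, with 4 at an unadjusted p under 0.05, and the median log2 fold change was 0.01. DESeq2 called 2 others, Cxcl5 lower and Tbx1 beside Gp1bb higher (named after its values were seen, log2 fold change 4.39, SE 1.56, adjusted p = 0.16 in edgeR and 0.017 in DESeq2). The gene called higher by edgeR was Lrrc15, a membrane protein of mesenchymal cells 24428 bases from Gp5, at 0.384 ± 0.665 CPM in the femur libraries and 29.1 ± 25.2 CPM in those of the mandible (log2 fold change 6.19, SE 1.29, adjusted p = 0.017, edgeR). DESeq2 did not call it (adjusted p = 0.063), and its femur counts came from S15 alone. The number of neighbours called was 0 without S13, S19 or S23 and 2 without S15.

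For likeness to the 8 fitted genes, 11439 genes with a mean of at least 5 CPM were ranked over the 6 libraries. The measure was Pearson's r of log2 CPM with the mean z score of the 8. Since the 8 were chosen for the difference between the sites, that difference largely fixes this r. A high r therefore does not show that a gene varied with the 8 within a site. The 10 highest were Rpl39-ps (0.992), Farsa (0.988), Gng10 (0.986), Itgb3 (0.984), Mtg1 (0.983), H3c4 (0.982), H2bc8 (0.982), Slamf1 (0.981), Alox12 (0.981) and Pycard (0.980). Of these 10 genes, 2 were in the platelet lists. Others serve general functions: Farsa encodes a chain of a tRNA synthetase, and H3c4 and H2bc8 encode histones. A high r can go with a small difference, since the log2 fold changes of Farsa and Gng10 were -0.76 for each (adjusted p = 0.10 for both, edgeR). Pycard, the inflammasome adaptor, was at -0.95 (adjusted p = 0.043, edgeR), under a 2-fold change. Rpl39-ps shares its sequence with a ribosomal protein gene, so its counts are uncertain, and its log2 fold change of -1.38 was -0.36 with the length trend removed.

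Markers of other cells moved with the same contrast, and their part in these results was not tested. Of 16 erythroid genes, 4 were called lower, all globin genes, and the median log2 fold change was -1.81. The erythroid sum was 2540, 420 and 440 CPM in S13, S15 and S18 and 417, 216 and 273 CPM in S16, S19 and S23, so S13 stood far above the others. At an unadjusted p under 0.05, 11 of the 16 genes were lower, DESeq2 called 7 lower, and 7 had groups that did not overlap. The number called lower was 0 without S13, S16 or S19, 9 without S15, 4 without S18 and 2 without S23, and 0 with the length trend removed. The log2 fold change was -2.98 for Hba-a1 (adjusted p = 0.03), -2.68 for Hba-a2 (adjusted p = 0.025) and -2.56 for Hbb-bt (adjusted p = 0.034, edgeR). Without S13 these values were -1.41, -1.56 and -1.48, and Hbb-bt was at -3.17 without S23. With the length trend removed they were -2.33, -1.99 and -1.89, and counts of near-identical globin copies are uncertain. The summed level of the 9 genes described here was 843, 596 and 944 CPM in S13, S15 and S18 and 109, 79.2 and 103 CPM in S16, S19 and S23.

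Of 12 stem and progenitor genes, 11 were tested and 1 was called lower, with sums of 109 to 182 CPM in femur libraries against 93.1 to 141 CPM in mandible libraries. That gene was Slamf1, a surface protein of blood stem cells and of megakaryocyte progenitors, at 15.02 ± 4.11 and 1.42 ± 0.335 CPM (log2 fold change -3.40, SE 0.53, adjusted p = 0.0032, edgeR), and it was called in all 6 fits that left out 1 library. All 10 neutrophil genes were below 0, with a median log2 fold change of -1.58. Of these, 1 was called lower (S100a8), 6 were lower at an unadjusted p under 0.05, and DESeq2 called 3. Their sums were 33033, 3737 and 23688 CPM in S13, S15 and S18 and 6974, 10388 and 3963 CPM in S16, S19 and S23, so S15 alone was low among the femur libraries. Without S15 6 of them were called lower, and 0 were called without any 1 of the other 5 libraries. Of 7 tested B cell genes 1 was called higher (Ebf1). Of 8 T and NK cell genes and 7 basophil and mast cell genes, 0 were called by edgeR or DESeq2, with 1 and 0 at an unadjusted p under 0.05. S100a8 and Ebf1 were named after their values were seen, and Ebf1 was called in 0 of the 6 fits that left out 1 library. In the opposite direction, 17 of 19 genes of stromal cells and teeth were called higher in the mandible, with sums of 371 to 475 CPM in femur libraries against 13622 to 23544 CPM in mandible libraries. The other 2 genes, Cxcl12 and Lepr (named after their values were seen), were below 0. Cxcl12 was at 190 ± 48.3 and 71.1 ± 44.7 CPM (log2 fold change -1.42, SE 0.42, adjusted p = 0.084 in edgeR and 0.017 in DESeq2), and its groups did not overlap. Lepr had a log2 fold change of -0.44 (SE 0.41, adjusted p = 0.70, edgeR). No gene of these lists was at 0 in all 6 libraries.

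**Figure D5:**
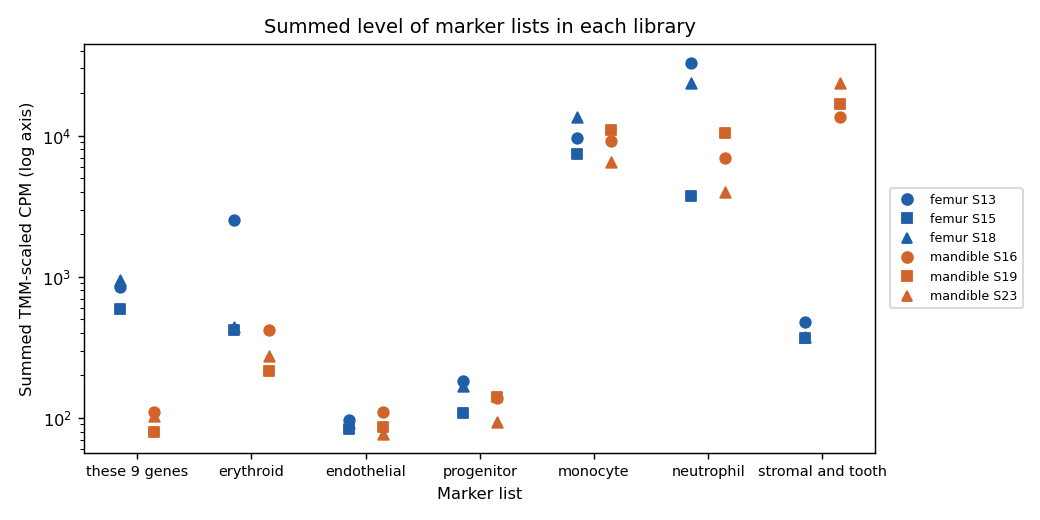
Summed TMM-scaled CPM (log axis) of the 9 platelet genes and of 6 marker lists in each library, femur and mandible. The 9 genes sum to 596 to 944 CPM in femur libraries against 79.2 to 109 CPM in mandible libraries. The monocyte sums, which are mostly Lyz2, overlap between the sites.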

How the data were processed

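Paired-end reads of the 6 libraries were trimmed with Trimmomatic, mapped with HISAT2 2.1.0 to a genome named as GRCm38 and counted with featureCounts, and the authors deposited raw counts per gene without normalization. The exon length of each gene, also deposited, was used for levels per kilobase and for the length trend. Of 52029 genes shared with GENCODE M21, only 3016 had deposited coordinates that fit within the gene in M21, and the coordinates given are those of M21, matched by Ensembl ID. The use of strand and of reads with several positions is not given in the sources used here.

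The fit was made with edgeR 4.0.16 under R 4.3.3. Low genes were removed by filterByExpr (minimum count 10, minimum total 15), and the quasi-likelihood test followed TMM scaling and used a prior count of 0.125, 3 libraries against 3, two-sided and without covariates. The limit for a gene without counts was set at 3 counts (0.118 to 0.191 CPM before scaling), for counting error only. The alternatives were RLE size factors, DESeq2 1.42.0, every gene with at least 1 count, offsets for gene length by loess (span 0.4), and each library left out in turn.

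The 9 genes and all lists were chosen with earlier results of these data known. Named genes were the 9 genes, the tested CXC genes, up to 3 genes with the highest mean and up to 4 called genes with the largest change in each direction of each platelet list, up to 3 called genes of the erythroid, endothelial and progenitor lists, the 10 genes most alike, and called neighbours. Others are said to have been named after their values were seen. A gene that meets this rule is not reported here.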

Additional observations from a re-analysis of the deposited data

How the results depend on the processing

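The log2 fold changes of the 8 fitted genes kept their sign under every alternative: of these values 77 moved by less than the spread between replicates and 3 by more. Their median was between -3.69 and -3.03 when 1 library was left out. The number of called genes, 938, was 1547 with DESeq2 and 1590 with every gene of at least 1 count tested, and 434 to 1565 when 1 library was left out. Those called lower, 236, were 448 and 571 under the same 2 settings and 58 to 608 with 1 library left out. The share of calls that were lower was 25.2%, and 35.9% with every gene tested and 12.2 to 38.8% with 1 library left out. The 13 other platelet and megakaryocyte genes called became 23 with every gene tested and 4 to 18 with 1 library left out. The neighbours called, 1, were 2 with DESeq2 and 0 to 2 with 1 library left out, and the CXC genes called, 0, were 1 with DESeq2. Removal of the length trend shifted the median of all genes by -0.14 and turned the sign of Fcer1g (0.37), F13a1 (-0.15), Myh9 (-0.27), Flna (-0.38), Tln1 (-0.19) and Runx1 (-0.42). Leaving out a library turned the sign of 3 genes: F13a1 ranged from -0.049 (without S19) to 0.46, Thbs1 from -0.53 to 0.089 (without S16) and Cxcl2 from -0.32 (without S23) to 1.42. The cause of these changes was not tested. Of 450 values of single genes under alternatives, 367 kept direction and call, 65 lost the call, 6 gained it, 9 changed sign and 3 moved. No paired analysis was possible because the animal of each library is not given. The numbers of the femur libraries (S13, S15, S18) and the mandible libraries (S16, S19, S23) do not tell whether any came from the same mouse. With 0 to 79 counts per mandible library, the folds of Gp1ba, Gp9, Gp5 and Gp6 are limited by depth, and Gp1bb could not be compared.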
